A study of Canis lupus familiaris with 12 samples.

Results

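The miR-200 family was followed here in cultured cells of CHMm, which came from a metastasis of a mammary gland tumor of a dog, and of CHMmTAM, its tamoxifen (TAM)-resistant derivative. Its 5 members, cfa-miR-200a, cfa-miR-200b, cfa-miR-200c, cfa-miR-141 and cfa-miR-429, were taken by exact name from a table of 453 canine miRNAs, and all 5 were among the 284 miRNAs tested. Of the 12 samples of the series, the 6 small RNA libraries were analysed, with 3 from each line, and the 6 RNA-seq samples were not used here. CHMmTAM was selected over 10 months in rising TAM until it grew in 10 μM, was held at 10 μM for 1 month and was then kept without drug for 1 week. Both lines grew in medium without phenol red and with steroid-depleted serum. CHMmTAM was the only resistant line with small RNA libraries here, so TAM resistance and other differences between the lines cannot be told apart. The labels give 3 samples of each line without stating separate cultures, so the spread between libraries may be technical.

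The miR-200 family is known as a guardian of the epithelial state. Its members repress ZEB1 and ZEB2, the transcription factors that switch off E-cadherin during epithelial-mesenchymal transition (EMT), and these factors in turn repress the miR-200 genes. The genes lie at separate loci that are each transcribed as a common precursor, with miR-200b, miR-200a and miR-429 from one locus and miR-200c and miR-141 from the other. The members also fall into groups by their seed, the stretch near the 5′ end that pairs with target mRNAs. miR-200b, miR-200c and miR-429 share one seed, and miR-200a and miR-141 share another that differs from it by a single base. Each seed group therefore draws members from both loci, so that the counts can be compared both by locus and by seed. In the RefSeq genes of the dog assembly UU_Cfam_GSD_1.0, MIR200B, MIR200A and MIR429 followed one another within the span of TTLL10, and TNFRSF18 came next. MIR200C and MIR141 were adjacent within the span of the lncRNA LOC119866430, between PTPN6 and PHB2.

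Libraries held from 7512659 to 12482211 counts, at which 3 counts correspond to between 0.24 and 0.399 CPM (counts scaled to a common library size). miR-21 alone took from 50.2% to 54.5% of each library. Libraries of the same line differed by more than sampling noise, with chi-square values between 26.3 and 85.8 for each degree of freedom, and none was treated as a repeat deposit. With the trimmed mean of M-values (TMM) scaling and edgeR's quasi-likelihood test, 125 miRNAs passed a false discovery rate (FDR) of 0.05, of which 72 were higher and 53 lower in CHMmTAM. The split was 64 higher and 73 lower with RLE size factors, and 41 higher and 100 lower with upper-quartile factors. Over all tested miRNAs the log2 fold change had a median of 0.06 with TMM and of -0.18 with upper-quartile factors, so changes are also given below relative to this median.

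All 5 members were expressed far above the depth limit in every library. miR-200c was the most abundant, with 12807 ± 504 TMM CPM (SD, n = 3) in CHMm and 12272 ± 326 in CHMmTAM, which ranked 16 of the 284 tested miRNAs in either line. miR-429 and miR-141 came next, with 2187 ± 131 and 1977 ± 160 TMM CPM in CHMm. The ranges of these neighbours overlapped in CHMm, from 2042 to 2297 for miR-429 and from 1805 to 2120 for miR-141, although miR-429 had the higher count within each of the 6 libraries. In CHMmTAM their ranges were apart, from 2768 to 2839.8 for miR-429 and from 1705 to 2053 for miR-141. miR-200a and miR-200b were the least abundant, at 359 ± 29.5 and 101 ± 8.65 TMM CPM in CHMm. The lowest count behind any member's value was 673, for miR-200b in CHMm replicate 1, a share of 0.00896% of that library with a 95% Wilson interval from 0.00831% to 0.00966% that covers counting error only. Each count is of reads assigned to a mature miRNA without correction for length, and the names do not give the arm of the precursor. The rule for reads that fit more than one member is not given in the sources used here, so the division of counts between these close relatives is uncertain.

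**Figure D1:**
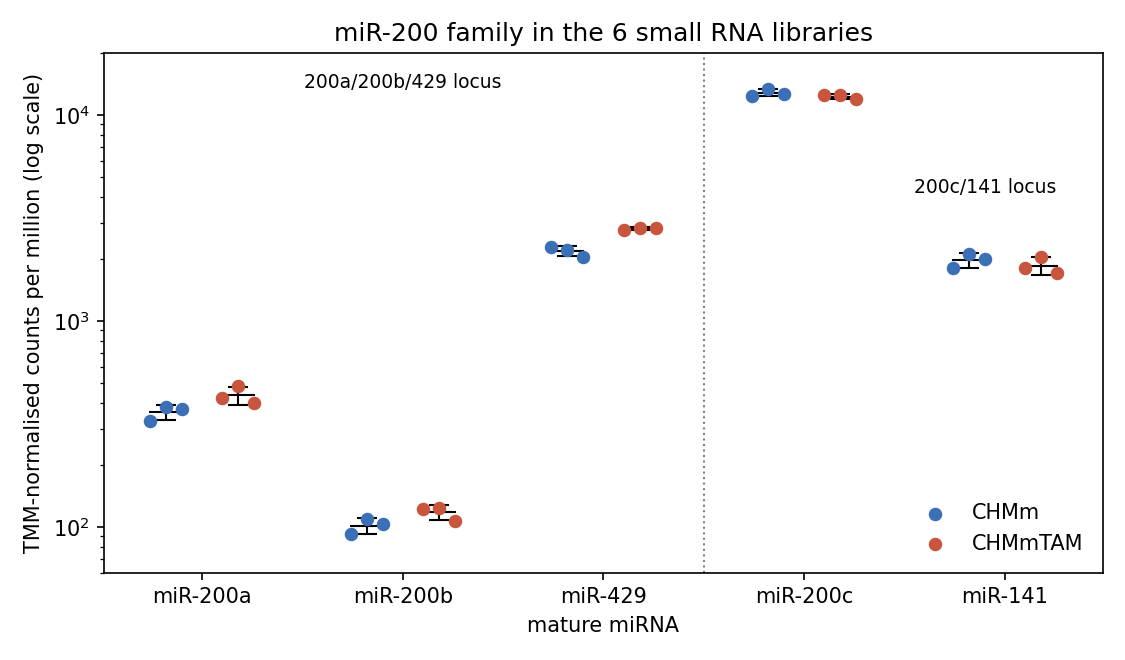
TMM CPM of each miR-200 family member on a log scale, with 1 point per library and black bars for the mean and SD of the 3 libraries of each line. miR-429 and miR-200a lie higher in all 3 CHMmTAM libraries than in CHMm, miR-200b overlaps by 1 pair of libraries, and miR-200c and miR-141 overlap.

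With TMM, the 3 members from the locus of miR-200b, miR-200a and miR-429 (the miR-200b locus) were higher in CHMmTAM, and the 2 from the locus of miR-200c and miR-141 (the miR-200c locus) did not pass the test. In counts, 3 of the 5 members passed an FDR of 0.05, all of them higher in CHMmTAM, against 25.4% of the 284 tested miRNAs that passed in this direction and 44.0% in either direction. With upper-quartile factors these 3 calls were lost and miR-200b turned below 0. Of the 5 members, 0 also passed a log2 fold change of 1 in size, the study's second threshold, which 11.3% of the tested miRNAs passed together with the FDR. The 3 libraries of CHMmTAM lay above the 3 of CHMm for 2 members, miR-429 and miR-200a, as did 28.9% of all miRNAs tested. The median log2 fold change of the members was 0.21, beside 0.06 over all tested miRNAs. A bulk library cannot tell more miRNA per cell from more cells that make it.

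miR-429 had the largest log2 fold change of the family. Its TMM CPM were 2297, 2220 and 2042 in CHMm replicates 1, 2 and 3, and 2768, 2825 and 2839.8 in those of CHMmTAM. Every CHMmTAM library was above every CHMm library, and the spread within CHMmTAM was small, with an SD of 38.1 CPM. The log2 fold change was 0.36 (SE 0.07; edgeR's quasi-likelihood test, FDR = 2.18e-07), a 1.29-fold increase, with a 95% interval from 0.23 to 0.49. It ranked 93 of 284 by log2 fold change from the highest. This call was lost only with upper-quartile factors among the 16 alternatives, at a log2 fold change of 0.12 (FDR = 0.14 by the same test).

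miR-200a, from the same locus but with the other seed, had TMM CPM of 326, 380 and 372 in CHMm and 425, 482 and 398 in CHMmTAM. The lines did not overlap, but CHMmTAM replicate 3 lay close to CHMm replicate 2. Its log2 fold change was 0.27 (SE 0.07) at an FDR of 0.000479 by edgeR's quasi-likelihood test, with a 95% interval from 0.13 to 0.42. The call rested on single libraries, since the FDR in that test was 0.0539 without CHMm replicate 1 and 0.0503 without CHMmTAM replicate 2, and it was 0.804 with upper-quartile factors.

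miR-200b, the least abundant member, had TMM CPM of 92.0, 109 and 103 in CHMm and 122, 124 and 107 in CHMmTAM. CHMmTAM replicate 3 lay below CHMm replicate 2, so the lines overlapped. The log2 fold change was 0.21 (SE 0.08) at an FDR of 0.0249 by edgeR's quasi-likelihood test, and it turned to -0.032 with upper-quartile factors. It missed the threshold without CHMm replicate 1 (log2 fold change 0.15), without CHMmTAM replicate 2 (0.17), with RLE size factors, with library totals, with TMM without the 10 most abundant miRNAs and with the Wald test of DESeq2.

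At the other locus, miR-200c had TMM CPM of 12407, 13373 and 12640.3 in CHMm and 12466, 12455 and 11895 in CHMmTAM. Its log2 fold change was -0.06 (SE 0.06) at an FDR of 0.461 by edgeR's quasi-likelihood test, with a 95% interval from -0.19 to 0.06. The lines overlapped, with the highest value in CHMm replicate 2 and the lowest in CHMmTAM replicate 3. miR-141 had 1805, 2120 and 2007 TMM CPM in CHMm and 1808, 2053 and 1705 in CHMmTAM, and the lines overlapped again. Its log2 fold change was -0.09 (standard error 0.07) at an FDR of 0.266 in that test, with a 95% interval from -0.22 to 0.04. Leaving out 1 library moved miR-141 between -0.17 without CHMmTAM replicate 2 (FDR = 0.0568 in that test) and -0.018 without CHMmTAM replicate 3, and miR-200c between -0.084 without CHMm replicate 1 and -0.017 without CHMm replicate 2. With all libraries, a rise of the size seen in miR-429 lies above both intervals. With upper-quartile factors both members passed as lower in CHMmTAM, at log2 fold changes of -0.30 and -0.34, and miR-141 passed with RLE size factors at -0.16 (FDR = 0.0496 by the same test).

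**Figure D2:**
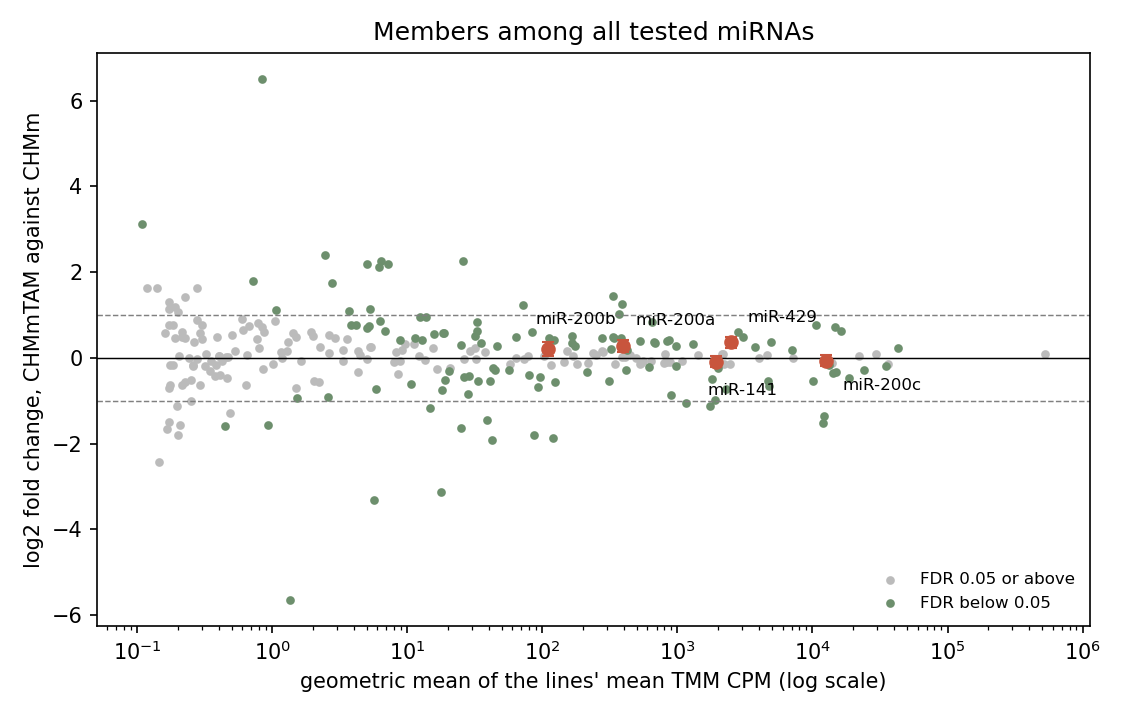
Log2 fold change of CHMmTAM against CHMm by edgeR for the 284 tested miRNAs, plotted against the geometric mean of the 2 lines' mean TMM CPM on a log scale. Green points passed an FDR of 0.05, dashed lines mark log2 fold changes of 1 and -1, and the 5 members (orange, with 95% intervals) all lie between -0.09 and 0.36.

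miR-200c held most of the family's counts, and with library totals or TMM the summed family was almost level between the lines. The sum was not taken with RLE or upper-quartile factors. There miR-200c had log2 fold changes of -0.12 and -0.30, and miR-141 of -0.16 and -0.34, respectively. Together the 5 members took 1.65%, 1.85% and 1.74% of all counts in CHMm and 1.80%, 1.79% and 1.66% in CHMmTAM. The means were 1.75% ± 0.0994 (SD, n = 3) and 1.75% ± 0.0791, and the lines overlapped. Within the family, miR-200c took 73.5% ± 0.169 of the summed counts in CHMm and 70.2% ± 0.726 in CHMmTAM, and miR-141 had 11.3% ± 0.583 and 10.6% ± 0.743. miR-429 took 12.6% ± 0.893 in CHMm and 16.1% ± 0.588 in CHMmTAM. The shares of miR-200a were 2.06% ± 0.125 and 2.48% ± 0.181, and those of miR-200b 0.582% ± 0.0329 and 0.672% ± 0.0356. The miR-200b locus thus supplied 15.2% ± 0.737 of the family's counts in CHMm and 19.2% ± 0.456 in CHMmTAM, with no overlap between the lines.

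The loci and the seeds were then compared by ratios within each library, which do not depend on how libraries are scaled. The counts of the miR-200b locus divided by those of the miR-200c locus were 0.191, 0.175 and 0.172 in CHMm and 0.232, 0.237 and 0.246 in CHMmTAM. All 3 CHMmTAM libraries were above all 3 CHMm libraries, with CHMm replicate 1 nearest to the other line. On the log2 scale the ratio was -2.48 ± 0.08 (SD, n = 3) in CHMm and -2.07 ± 0.04 in CHMmTAM, a difference of 0.41 or 1.33-fold. Leaving out any 1 library gave differences from 0.38 to 0.46. Without the most abundant member of each locus, which leaves miR-200a and miR-200b against miR-141, it was 0.35. For comparison, 73.8% of the 6786 pairs of single miRNAs with a mean of at least 50 CPM had ratios with no overlap. Their median difference was 0.42 in size, so a difference of 0.41 without overlap was ordinary for 2 miRNAs.

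Divided by seed instead, the counts of miR-200b, miR-200c and miR-429 were 6.95, 6.28 and 6.21 times those of miR-200a and miR-141 in CHMm. In CHMmTAM the same ratio was 6.88, 6.08 and 7.06. The lines overlapped, and the log2 ratio was 2.69 ± 0.09 (SD, n = 3) in CHMm and 2.73 ± 0.12 in CHMmTAM, a difference of 0.041 that was smaller than the spread between libraries. Without CHMmTAM replicate 2 it was 0.106. Without the most abundant member of each seed group, which leaves miR-200b and miR-429 against miR-200a, it was 0.084. miR-200c and miR-141 held most of the counts of their seed groups. The summed seed ratio therefore mostly followed miR-200c to miR-141, which share a locus and had a log2 difference of 0.032. It says little about the less abundant members. The difference by locus was 0.41 where the pooled SD was 0.065, and the difference by seed was 0.041 where the pooled SD was 0.103. No p is given for these sums over chosen members, and with 3 libraries a line an exact permutation test (two-sided) cannot go below 0.1.

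Single pairs of members showed the same arrangement. Their differences largely restate the members' log2 fold changes given above, so they are not separate support for it. miR-200a and miR-141 share a seed but not a locus, and the ratio of miR-200a to miR-141 was 0.180, 0.179 and 0.185 in CHMm and 0.235, 0.235 and 0.233 in CHMmTAM. This was the tightest ratio of the family in CHMmTAM, with an SD of 0.0064 on the log2 scale, although miR-200a itself ranged from 398 to 482 TMM CPM there. miR-200c and miR-141 share a locus but not a seed, and their ratio was 6.88, 6.31 and 6.30 in CHMm and 6.90, 6.07 and 6.97 in CHMmTAM, with overlap. The ratio of miR-200c to miR-429, which share a seed but not a locus, was 5.40, 6.02 and 6.19 in CHMm and lower in all CHMmTAM libraries, at 4.50, 4.41 and 4.19.

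Across all 10 pairs, the 6 that joined members of different loci had ratios with no overlap between the lines, with log2 differences from 0.28 to 0.46 in size. The 4 pairs within a locus all overlapped, with differences from 0.032 to 0.15. By seed the pairs were mixed, since 3 of the 4 pairs with the same seed and 3 of the 6 with different seeds had no overlap. Among all 6786 pairs of the 117 miRNAs with a mean of at least 50 CPM, 73.8% had ratios with no overlap, and the median size of the difference was 0.42. The pairs between loci were therefore like most pairs of miRNAs, and the pairs within a locus differed less than that median. Pairs that share a member are not independent of each other, and the split by locus or seed largely follows from the members' log2 fold changes.

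**Figure D3:**
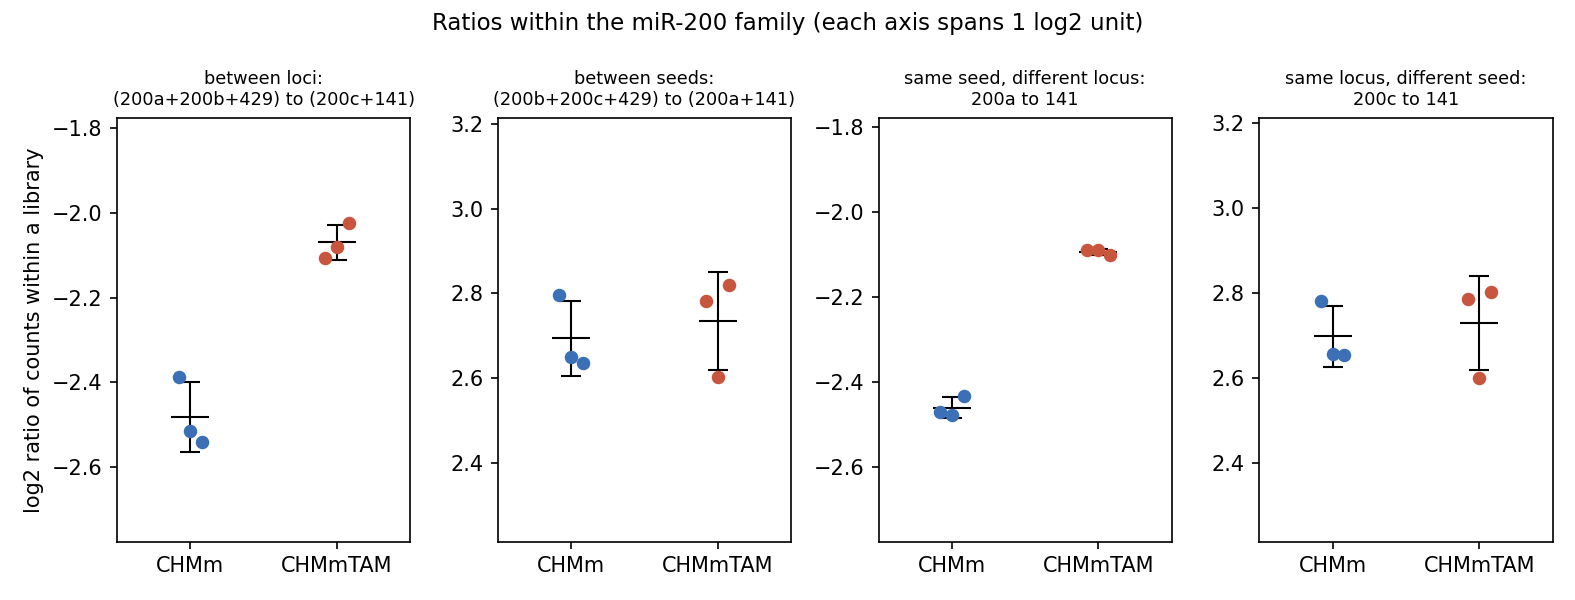
Log2 ratios of counts within each library (points), with the mean and SD of the 3 libraries per line, on axes that each span 1 log2 unit. The ratio between loci and the ratio of miR-200a to miR-141 are higher in all 3 CHMmTAM libraries, whereas the ratio between seeds and the ratio of miR-200c to miR-141 overlap between the lines.

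The scaling moved all members together and left their order unchanged. From TMM to upper-quartile factors, the log2 fold change of miR-429 went from 0.36 to 0.12 and that of miR-141 from -0.09 to -0.34. Taken relative to the median of the 284 tested miRNAs, miR-429 was at 0.30 under all 5 scalings. miR-200a was at 0.21 and miR-200b at 0.15 above that median in each, miR-200c was at -0.12, and miR-141 was between -0.15 and -0.16. A scaling shifts all miRNAs of a library alike, so these distances and the order of the members were bound to stay nearly the same. The 5 scalings are therefore not separate support for them. The members of the miR-200b locus lay above the median miRNA and those of the miR-200c locus below it. The sign of miR-200b against 0 turned with upper-quartile factors.

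**Figure D4:**
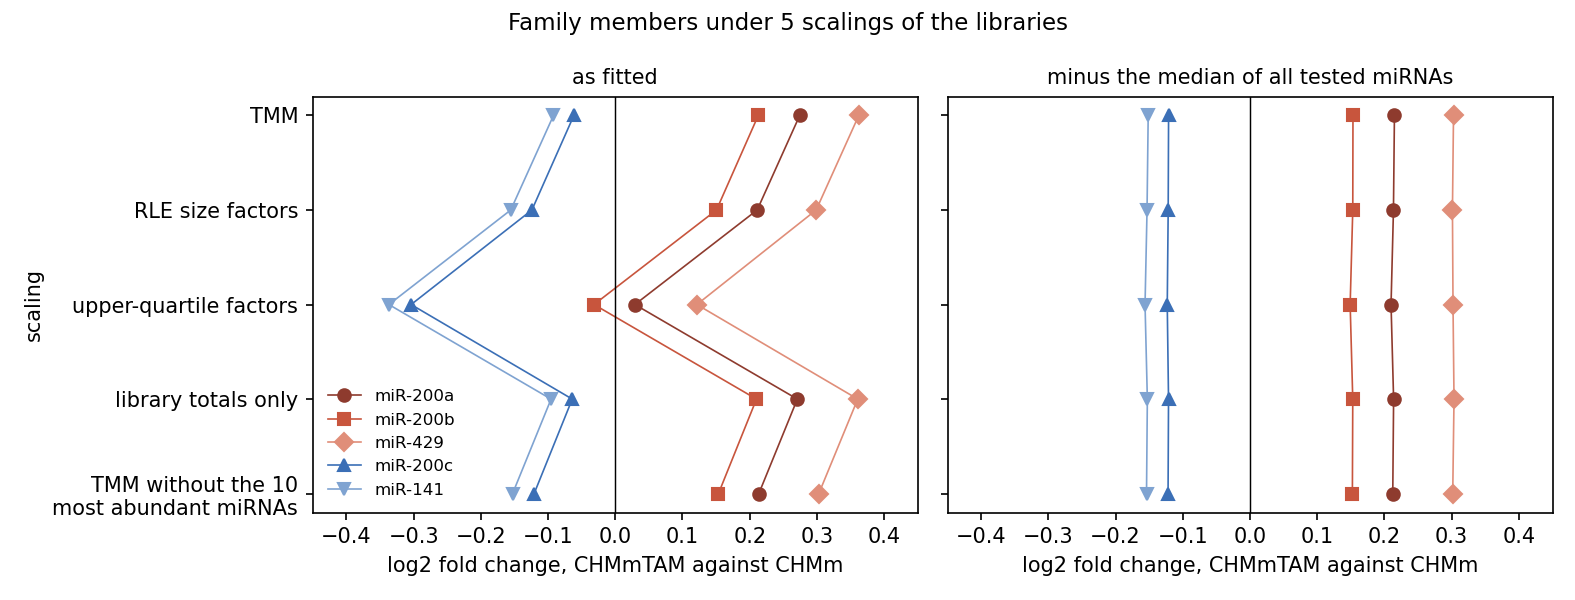
Log2 fold change of each member under 5 scalings of the libraries, as fitted (left) and minus the median of all tested miRNAs (right). All members shift downward with upper-quartile factors, where miR-200b turns below 0. A scaling shifts all miRNAs nearly alike, so the order of the members and their distance from the median stay alike.

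Other miRNAs tied to the epithelial state passed the test in both directions. In a list of 12, which includes repressors of ZEB and SNAIL factors, 10 were higher and 2 lower in CHMmTAM at an FDR of 0.05 by edgeR's quasi-likelihood test, beside 25.4% of all tested miRNAs that passed as higher and 44.0% in either direction. The median log2 fold change of the list was 0.56, or 0.50 relative to the median of all miRNAs. With upper-quartile factors 8 were higher and 2 lower, and the median was 0.32. miR-183 and miR-96, from a cluster expressed in epithelia and sensory cells, had log2 fold changes of 0.77 and 0.72. List members of the same cluster are not independent of each other, so the count of 10 is not of separate changes. miR-205, which also targets ZEB1 and ZEB2 and marks basal epithelium, fell from 5998 ± 139 to 3802 ± 64.2 TMM CPM, and miR-203, a skin and basal epithelial miRNA, fell from 2174 ± 28.0 to 1835 ± 101. The epithelial list thus held miRNAs that moved opposite to the miR-200b locus.

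Of 10 miRNAs known to promote EMT, 4 were higher and 4 lower in CHMmTAM by the same test, again beside 25.4% of all tested miRNAs as higher and 44.0% in either direction. The list's median log2 fold change was 0.013 with TMM, but turned to -0.050 with RLE size factors and -0.23 with upper-quartile factors, and it was -0.046 relative to the median of all miRNAs. With upper-quartile factors 4 were higher and 5 lower. miR-10b and miR-181a were higher, at log2 fold changes of 1.43 and 1.26. miR-221 and miR-222 were lower, at -1.52 and -1.36. The mesenchymal list did not move in one direction.

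The listed markers of other cell types were near the depth limit or low in both lines. These lists are short and do not cover every marker of a cell type. The 4 fibroblast and smooth muscle miRNAs summed to between 39.7 and 47.6 TMM CPM in CHMm and between 23.8 and 28.8 in CHMmTAM, and 0 were higher and 1, miR-199, was lower, or 2 lower with upper-quartile factors. miR-145, a defining marker of smooth muscle, had at most 5 counts in any library. The 3 skeletal muscle miRNAs summed to between 5.85 and 6.97 TMM CPM in CHMm and between 27.6 and 28.8 in CHMmTAM, and both that were tested, miR-1 and miR-133a, were higher. The 6 blood cell miRNAs summed to between 4.92 and 6.29 TMM CPM in CHMm and between 11.9 and 15.0 in CHMmTAM, and 2 of the 4 tested were higher (1 with upper-quartile factors). Beside these calls, 25.4% of all tested miRNAs passed as higher and 44.0% in either direction. With so few miRNAs in each list, the calls cannot be set apart from these shares. miR-126, the endothelial marker, had 0 counts in CHMm and 1, 3 and 1 in CHMmTAM. These sums are small beside the 17490.2 TMM CPM of the summed miR-200 family in CHMmTAM, and their part in its values was not tested.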

How the data were processed

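Total RNA was extracted with Trizol, miRNA was purified and libraries were sequenced on HiSeq, per the labels. The deposited table gives raw read counts for each miRNA name in 1 column per library, which the authors did not normalize. The submitters' processing notes name BWA, HISAT2 2.0.4 and CanFam3.1 without a role for each. Adapter trimming, the miRNA database and the rule for reads that fit several miRNAs are not given in the sources used here.

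Columns were assigned to lines from the sample titles. The test used the miRNAs (284 of 453) whose counts in the 6 libraries summed to 10 or more. CHMmTAM was compared with CHMm in edgeR 4.0.16 (R 4.3.3) by the quasi-likelihood test with TMM factors, with Benjamini-Hochberg adjustment over all miRNAs tested. The study gives thresholds (FDR 0.05, log2 fold change 1 in size) but no test for these libraries. Each SE is the log2 fold change divided by the square root of F. The fit was first tested on simulated data. It called 62.9% of the log2 changes of 0.5 in the right direction and 1.13% of the unchanged miRNAs beside them. No smaller change was drawn, so changes of the size seen in the family were not covered. Depth ranged from 7512659 to 12482211 counts, and 95% Wilson intervals cover counting error only. Family, locus and seed sums were compared as shares or log2 ratios per library, without a test, in Python 3.11.15 with pandas 2.3.3, NumPy 2.4.6 and SciPy 1.17.1.

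Alternatives were RLE and upper-quartile factors, library totals, TMM without the 10 most abundant miRNAs, DESeq2 1.42.0, limma-voom (limma 3.58.1), no filter, the edgeR default filter, a minimum of 10 counts per library, a replicate block and each library left out. The members, the lists and these tests were chosen with earlier results of these data known. Seed groups were to be read from mature sequences and were instead taken from general knowledge of the family. Named miRNAs outside the family are, in each list, up to 2 per direction with the largest log2 fold change among those past the FDR with a mean of at least 50 CPM, and the 3 whose profile over the libraries was most like that of the summed family. Marker miRNAs below that level were chosen with their values in view. The names of neighbouring genes came from RefSeq (UU_Cfam_GSD_1.0), in which all 5 members were matched. Its coordinates are not given because its build differs from the submitters'.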

Additional observations from a re-analysis of the deposited data

How the results depend on the processing

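The number of miRNAs past the FDR stayed within 1.5 times of 125 in each alternative. The ratios, which do not depend on scaling, had 8 alternatives of their own. These were each library left out, the mean of log2 counts, and the most abundant member of each group left out. The locus ratio difference kept its direction in them, from 0.35 to 0.46. The seed ratio difference ranged from -0.0016 to 0.106, and its highest value, without CHMmTAM replicate 2, was above the pooled SD of 0.103. With upper-quartile factors, the log2 fold changes were 0.029 for miR-200a, -0.032 for miR-200b (reversed), 0.12 for miR-429, -0.30 for miR-200c and -0.34 for miR-141, so that the calls of the miR-200b locus were lost and those of the miR-200c locus gained. The values relative to the median of all miRNAs stayed alike, as they must where a scaling shifts all miRNAs nearly alike. Which scaling is closer to the truth was not tested. miR-200b also lost its call with RLE size factors (0.15), library totals (0.21), TMM without the 10 most abundant miRNAs (0.15) and DESeq2 (0.15), and miR-141 gained one with RLE size factors (-0.16). Leaving out each library gave from 0.19 to 0.35 for miR-200a from 0.15 to 0.29 for miR-200b, from 0.31 to 0.40 for miR-429, from -0.084 to -0.017 for miR-200c and from -0.17 to -0.018 for miR-141. The log2 ratio of the summed family share between the lines moved from 0.0023 to 0.097 when miR-21 was left out of the denominator. The replicate block gave 126 calls and a log2 fold change of 0.21 for miR-200b (FDR = 0.0192 by edgeR) and changed no member's call. Deviations of same-numbered libraries from their line's mean correlated at 0.062, 0.46 and -0.31 over 117 miRNAs, so the numbers were not taken to pair the libraries. Depth did not limit any member, as the lowest count was 673.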

Other observations

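The 3 miRNAs whose centred log2 CPM profile over the 6 libraries was most like that of the summed miR-200 family were miR-196a, miR-378 and miR-320, out of 112 miRNAs outside the family with a mean of at least 50 CPM. Their root mean square differences from the family were 0.030, 0.037 and 0.044 on the log2 scale. miR-196a had 491 ± 30.7 TMM CPM (SD, n = 3) in CHMm and 494 ± 9.82 in CHMmTAM, and miR-378 had 4001 ± 133 and 3998 ± 191. miR-320 had 839 ± 17.5 TMM CPM in CHMm and 802 ± 4.72 in CHMmTAM. None of the 3 passed an FDR of 0.05 by edgeR's quasi-likelihood test, and for miR-320 all CHMmTAM libraries lay below all CHMm libraries.

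miR-429 varied apart from the other members within each line. CHMm replicate 1 and CHMmTAM replicate 3 had the lowest TMM CPM of miR-200a, miR-200b, miR-200c and miR-141 of their lines, and the highest of miR-429. As a share of the family's counts, which does not depend on scaling, miR-429 took 13.6% in CHMm replicate 1 against 12.2% and 11.9% in replicates 2 and 3. In CHMmTAM it took 16.8% in replicate 3 against 15.7% in both other libraries. These libraries were also the shallowest of each line, with totals of 7512659 and 8137736 counts. As a share of all counts the order was not kept, since miR-429 was lowest in replicate 3 of CHMmTAM, at 0.278%, and the part of depth in it was not tested.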
